A study of Mus musculus with 2 samples.

Results

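The genes examined here were chosen by symbol, from gene families known for proteins of the primary cilium and the centrosome. They comprised the protein-coding mouse genes whose symbols are Ift, Bbs, Tctn, B9d or Cep followed by a number in GENCODE release 21, which gave 62 of the 21938 protein-coding genes outside the mitochondrial genome, with 14 Ift, 8 Bbs, 2 Tctn, 2 B9d and 36 Cep genes. Tctn2 is not annotated as protein-coding in that release and is in none of the counts. The families were compared for SRCAP-YPet peaks at their promoters. SRCAP is the ATPase of a remodeler that places the histone variant H2A.Z into nucleosomes in exchange for H2A. Peaks came from CUT&Tag, in which an antibody directs the Tn5 transposase to a chromatin protein, here an anti-GFP antibody (ab290) that recognises the YPet tag. Both libraries were made from SYAT cells, CGR8 mouse embryonic stem cells (mESC) with YPet and an auxin-inducible degron knocked into both alleles of Srcap and with a stably expressed OsTir1 receptor. The cells spent 3 days in serum and LIF before the experiment and were kept in auxinole, which blocks basal degradation of SRCAP, at 200 nM per the labels, whereas the methods of the study give the same number in µM. Both libraries belonged to this 1 control group, so the values below describe 2 replicates and no contrast between conditions. The labels do not say whether the replicates came from separate cultures, and the reporting form of the study states in general that replicates were grown and treated separately.

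Most vertebrate cell types can grow a primary cilium from the older centriole of the centrosome. Intraflagellar transport (IFT) trains carry cargo along the axoneme, with IFT-B mostly moving outward with kinesin and IFT-A returning with dynein, while the BBSome, a coat of Bardet-Biedl syndrome proteins, takes membrane receptors out of the cilium. Tectonic (Tctn) and B9-domain (B9d) proteins sit in the transition zone, the gate at the ciliary base, and Cep proteins act in centriole duplication, centriolar appendages, the linker between centrosomes and pericentriolar satellites. RFX transcription factors bind the X-box, a promoter element known from many ciliary genes. A CUT&Tag peak marks where SRCAP was called and is no measure of a gene's expression.

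Promoters that represent the patterns described below are shown first. Each stretch covers the bases just upstream of the gene's representative transcription start site (TSS), on the strand of the gene, in mm10, and outside annotated exons. Ift57 (chr16:49698983-49699232) is the only gene with an Ift symbol and peaks in both replicates. Bbs10 (chr10:111298429-111298678), Cep85 (chr4:134187113-134187362) and Cep97 (chr16:55934856-55935105) had strong peaks in both, and Cep170 (chr1:176814068-176814317) had the best pair of ranks. Capitals mark CCAAT boxes, read as CCAAT or, on the other strand, ATTGG, and, in Ift57, a GTTGCC single site.
Ift57: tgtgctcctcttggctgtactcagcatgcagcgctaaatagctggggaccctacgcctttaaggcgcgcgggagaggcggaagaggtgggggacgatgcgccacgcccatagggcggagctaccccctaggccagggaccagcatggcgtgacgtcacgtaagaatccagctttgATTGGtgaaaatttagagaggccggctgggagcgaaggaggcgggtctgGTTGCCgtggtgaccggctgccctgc
Bbs10: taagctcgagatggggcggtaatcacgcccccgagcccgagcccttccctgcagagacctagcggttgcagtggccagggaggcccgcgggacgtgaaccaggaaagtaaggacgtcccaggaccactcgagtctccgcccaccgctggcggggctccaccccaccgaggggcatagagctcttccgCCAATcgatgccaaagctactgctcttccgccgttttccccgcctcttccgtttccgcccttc
Cep85: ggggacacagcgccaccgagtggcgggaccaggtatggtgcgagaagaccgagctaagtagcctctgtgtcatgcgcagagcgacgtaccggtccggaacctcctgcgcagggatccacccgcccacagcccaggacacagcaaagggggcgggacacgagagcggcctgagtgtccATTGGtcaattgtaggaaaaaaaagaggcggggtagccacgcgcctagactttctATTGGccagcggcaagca
Cep97: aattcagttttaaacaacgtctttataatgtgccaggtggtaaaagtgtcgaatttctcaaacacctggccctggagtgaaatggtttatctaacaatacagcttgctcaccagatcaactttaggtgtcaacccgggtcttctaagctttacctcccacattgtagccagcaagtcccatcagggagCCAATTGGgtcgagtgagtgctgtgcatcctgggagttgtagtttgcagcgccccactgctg
Cep170: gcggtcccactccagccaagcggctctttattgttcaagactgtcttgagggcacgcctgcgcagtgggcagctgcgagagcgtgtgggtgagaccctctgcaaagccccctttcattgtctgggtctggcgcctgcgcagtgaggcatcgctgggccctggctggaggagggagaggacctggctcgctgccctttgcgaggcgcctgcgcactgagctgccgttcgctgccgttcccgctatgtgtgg
The Bbs10 and Cep85 stretches lay wholly inside the peaks of both replicates, 250 of 250 bases each. In Ift57 the peaks covered 244 and 195 bases of the stretch and in Cep170 178 and 131 bases. In Cep97 they covered 50 and 45 bases, and most of each peak lay downstream of the representative TSS. The Cep97 boxes CCAAT and ATTGG share 2 bases. No searched motif was present in the Cep170 stretch.

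A promoter peak was one that met, by at least 1 bp, the window reaching 1000 bp before and 500 bp past any annotated TSS. In replicate 1, 24 of 62 genes (38.7%, exact 95% interval 26.6 to 51.9%) had one, against 15.7% of all protein-coding genes. In replicate 2 the number was 38 (61.3%, 48.1 to 73.4%), against 30.4% of all genes. Of the 62 genes, 18 (29.0%, 18.2 to 41.9%) had a peak in both replicates, against 12.0% of all genes, and 44 (71.0%) in at least 1, against 34.0%. The 62 promoters therefore carried a peak more often than the average coding gene in each replicate, with intervals that lie above the all-gene percentage and that cover counting error only. Replicate 1 contributed 6158 peaks and replicate 2 contributed 12958, their read depth is unknown, and the part of depth in the higher count of replicate 2 was not tested. Of the genes with a peak in replicate 1, 75.0% had one in replicate 2 (76.7% over all genes), and of those in replicate 2, 47.4% had one in replicate 1 (39.7% over all genes).

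Base composition and TSS number also differed between these genes and all coding genes. By GC content of at least 50% and a CpG observed-over-expected ratio of at least 0.6 between 250 bp before and 50 bp past a representative TSS, 50 of the 62 promoters (80.6%) were GC- and CpG-rich, against 44.0% of all coding genes. Within GC- and CpG-rich promoters, 20 of 50 ciliary and centrosomal genes (40.0%, 26.4 to 54.8%) had a peak in replicate 1 against 25.4% of all such genes, and 32 (64.0%, 49.2 to 77.1%) in replicate 2 against 48.0%. Peaks in both replicates were found at 15 (30.0%, 17.9 to 44.6%) against 20.1%, a share whose interval includes that of all such genes. The gap to the background was thus smaller among promoters of like composition than over all genes. The genes also had a median of 6 annotated start sites against 3 over all genes. With 1 representative TSS per gene, replicate 1 had peaks at 23 of the 62 genes, replicate 2 at 36 and both at 16. With all start sites these counts were 24, 38 and 18. The percentages of all genes were 13.8, 27.0 and 10.7% with 1 TSS per gene and 15.7, 30.4 and 12.0% with all. The counts and the percentages of all genes thus both fell slightly, and the part of TSS number in the difference was not tested.

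The families differed in how many promoters carried a peak. Among the 36 Cep genes, 17 (47.2%, 30.4 to 64.5%) had a peak in replicate 1, 27 (75.0%, 57.8 to 87.9%) in replicate 2 and 13 (36.1%, 20.8 to 53.8%) in both. Among the 14 Ift genes the numbers were 2 (14.3%, 1.78 to 42.8%), 5 (35.7%, 12.8 to 64.9%) and 1 (7.14%, 0.181 to 33.9%). Ift promoters were therefore near the all-gene percentages in both replicates, and Cep promoters above them. Of the 8 Bbs genes, 4 (50.0%, 15.7 to 84.3%) had a peak in each replicate and 3 (37.5%, 8.52 to 75.5%) in both. These percentages were close to those of Cep in replicate 1 and in both replicates and between Ift and Cep in replicate 2. With 8 genes the intervals are wide, and those of replicate 2 and of both replicates include the 30.4 and 12.0% of all genes. Of the small families, 1 of 2 Tctn genes had a peak in both replicates, and 1 of 2 B9d genes in replicate 2 only. The 26 Ift, Bbs, Tctn and B9d genes together had 7 (26.9%), 11 (42.3%) and 5 (19.2%), all under the Cep percentages. The exact intervals of Cep and Ift overlapped in each replicate and the difference between families was not tested. Cep promoters were also richer in GC than Ift promoters (median 65.0 and 56.8%). Among GC- and CpG-rich promoters, the counts in the same order were 14, 23 and 11 of 29 Cep genes (48.3, 79.3 and 37.9%) and 2, 4 and 1 of 11 Ift genes (18.2, 36.4 and 9.09%), beside 25.4, 48.0 and 20.1% of all such genes. The Ift percentages were thus below this background, with exact intervals that include it.

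**Figure D1:**
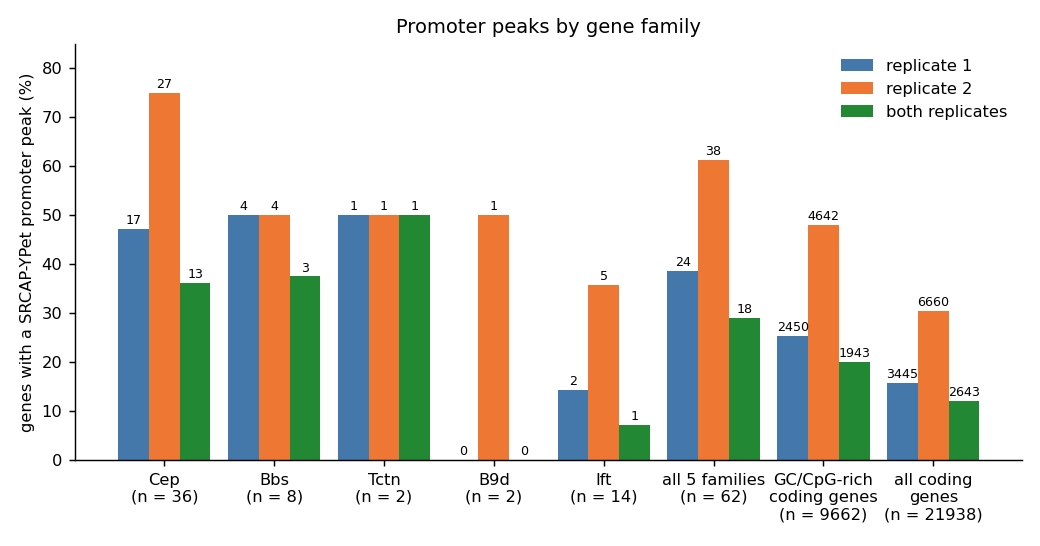
Percentage of genes with a SRCAP-YPet promoter peak (y axis) for each gene family, all 62 genes, GC- and CpG-rich coding genes and all coding genes (x axis), in replicate 1, replicate 2 and both replicates; the number above each bar is the count of genes. Cep bars reach 47.2, 75.0 and 36.1%, while Ift bars, at 14.3, 35.7 and 7.14%, lie near the all-gene bars of 15.7, 30.4 and 12.0%.

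The bar plot of families shows the same counts beside the background, and the families with 2 genes can only take values of 0, 50 or 100%. The score is the value that the peak caller gave each peak, used here to order peaks within a list. Ranks are given as a percentage of the list counted from its highest score, so that a low percentage is a strong peak, and tied scores take the best rank.

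Of the 14 Ift genes, 8 (57.1%) had no promoter peak in either replicate, against 66.0% of all coding genes. Ift57, an IFT-B subunit, had a peak of score 71 in replicate 1 (chr16:49698989-49699448, rank 8.57%) and of score 52 in replicate 2 (chr16:49699038-49699494, rank 26.6%). The peaks shared 411 bp and their midpoints lay 15 bp upstream and 33 bp downstream of the TSS, in the first case upstream of the gene and in the second in an exon. Ift57 thus carried overlapping peaks over the start site in both replicates. Ift122, of IFT-A, had a peak in replicate 1 only (score 49, rank 20.7%), which also lay at the promoter of the divergent gene Mbd4, 159 bp away. In replicate 2 its nearest peak lay 13914 bp outside the window. Peaks in replicate 2 only were found at Ift140 of IFT-A (score 80, rank 10.5%) and at the IFT-B genes Ift80 (68, 15.3%), Ift52 (63, 18.2%) and Ift74 (24, 72.2%). The Ift140 and Ift80 peaks also lay at the promoters of Cramp1l and Smc4, whereas the Ift52 and Ift74 peaks lay at no other gene's promoter. No promoter peak was called in either replicate at Ift20, Ift22, Ift27, Ift46, Ift81, Ift88 and Ift172 of IFT-B or at Ift43 of IFT-A. Of these, Ift172 came nearest, with a replicate 1 peak of score 32 at 2091 bp outside its window, and Ift46 had a replicate 2 peak of score 46 at 9394 bp.

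The Bbs genes encode BBSome subunits and chaperonin-like proteins. Bbs10 and Bbs12, which help the BBSome to assemble, are of the latter kind, and each had a peak in both replicates. At Bbs10 the scores were 75 and 90 (ranks 7.34 and 7.45%) and the midpoints lay 70 and 58 bp upstream of its only annotated TSS, so the peaks were at nearly the same position, at ranks 452 of 6158 and 965 of 12958. At Bbs12 the scores were 26 and 79 (ranks 60.6 and 10.8%), with the peak of replicate 1 wholly inside that of replicate 2. The Bbs12 peaks also covered the promoter of Cetn4, a divergent centrin gene 108 bp away, so the lists cannot assign them to 1 of the pair. Mkks, the third member of this chaperonin-like group, outside the 62 genes, had peaks of score 32 and 135.

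Of the BBSome subunits, Bbs2 had peaks of score 76 and 71 (ranks 7.05 and 14.0%) whose midpoints lay in an exon, 617 and 470 bp downstream of the nearest TSS. In replicate 1 only 63 of the 358 bp of the Bbs2 peak reached into the window, the smallest overlap of any of these peaks, and a narrower window, 500 bp before to 250 bp past the TSS, lost it in that replicate. Bbs9, another subunit, had a peak in replicate 1 alone, with score 128 at rank 110 of 6158 (1.79%), on chr9:22475282-22475842, the highest score of any protein-coding gene with a peak in replicate 1 only. In replicate 2 its nearest peak outside the window lay 1659 bp away, inside the gene, with a score of 14. Bbs7 had a peak in replicate 2 only (score 48, rank 30.6%), in an exon. Bbs1, Bbs4 and Bbs5 had none, and a replicate 1 peak of score 13 lay inside the Bbs1 gene, 6938 bp from its window.

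Among transition zone genes, Tctn1 had a peak of score 57 in replicate 1 (rank 15.1%) and of score 15 in replicate 2 (rank 90.2%), overlapping by 217 bp in an exon. The replicate 2 peak was among the weakest of its list and was lost when that list was reduced to the length of the list of replicate 1. B9d1 had a peak of score 35 in replicate 2 (rank 51.1%), which also lay at the promoter of its antisense RNA B9d1os. Tctn3 and B9d2 had no peak in either replicate. Cep290, a large transition zone protein mutated in Joubert syndrome, had a peak in replicate 2 only (score 81, rank 10.1%), shared with the divergent gene Tmtc3.

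The Cep genes held the highest ranks. Cep170, a subdistal appendage protein, had scores of 111 and 146 (ranks 2.73 and 1.84%), with peaks overlapping by 655 bp that also lay at the promoter of the divergent satellite gene Sdccag8, which starts 593 bp away. Cep85, a centrosomal protein, had scores of 133 and 123 (ranks 1.58 and 3.29%) and shared its peaks with no other gene. Cep97, which with CP110 caps the centriole and restrains cilium growth, had scores of 150 and 99 (ranks 1.15 and 5.84%), the highest score in replicate 1 among the 62 genes. Cep120, needed for centriole elongation, had 79 and 142 (ranks 6.32 and 2.04%). These 4 genes ranked in the top 10% of both lists, and Bbs10 was the only other gene to do so.

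Linker and appendage genes followed with unequal ranks. Cep250, the linker protein C-Nap1, had scores of 48 and 135 (ranks 21.6 and 2.48%), both peaks centred within 8 bp of the TSS. Cep68, another linker protein, had 23 and 83 (66.2 and 9.35%), and Cep128, of the subdistal appendages, had 47 and 74 (22.2 and 12.8%) beside the divergent gene Tshr. The percentages refer to lists of unequal length, and by position Cep128 stood at 1365 in replicate 1 and 1656 in replicate 2. Cep57, a pericentriolar protein, and its paralog Cep57l1 had 43 and 106 (27.8 and 4.76%) and 44 and 76 (26.6 and 11.9%), with peaks that also lay at the promoters of their divergent genes, Fam76b and Sesn1. The Cep57 peak of replicate 2, at 1228 bp, was the widest of all 62 genes. Cep295, which turns new centrioles into centrosomes, had 15 and 46 (88.6 and 33.5%), so it was near the bottom of the list of replicate 1.

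At 3 Cep genes the replicates did not share a peak. The peaks of Cep350, a microtubule-anchoring protein, had scores of 25 and 100 and midpoints 591 bp apart. Those of Cep131, a satellite protein, had scores of 16 and 22 and lay 18678 bp apart at different start sites, and those of Cep170b, a paralog of Cep170, had scores of 19 and 38 and lay 18950 bp apart. Overlapping peaks were thus present at 15 of the 18 genes (83.3%), against 94.5% of all coding genes with a peak in both replicates. Across the 18 genes the ranks of the replicates had a Spearman correlation of 0.51, and 0.40 across all coding genes with a peak in both, where genes with a shared promoter share a peak.

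**Figure D2:**
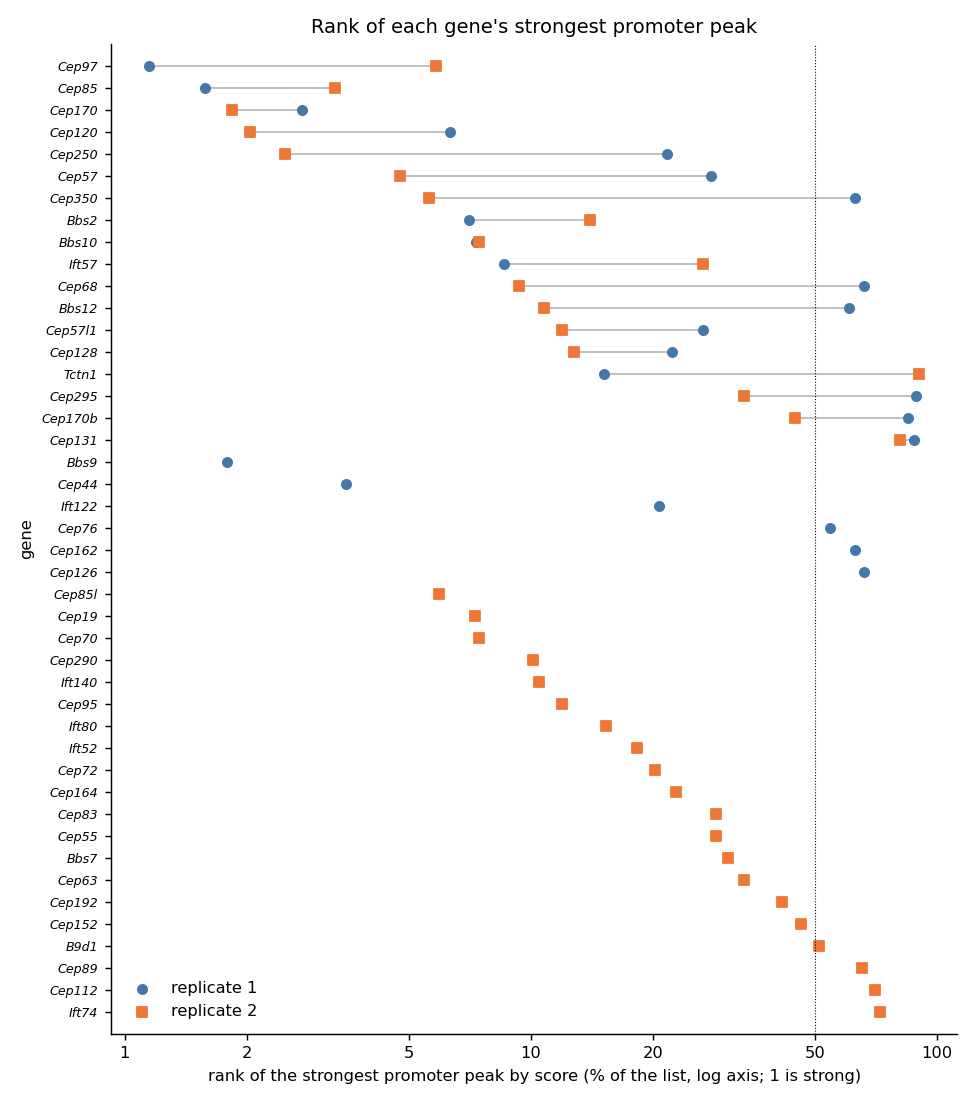
Rank of each gene's strongest promoter peak by score, as a percentage of its list (x axis, log scale), for the 44 genes with a peak (y axis); circles are replicate 1, squares replicate 2, grey lines join both, and the dotted line marks 50%. Cep170, Cep85, Cep97, Cep120 and Bbs10 sit under 10% in both replicates, whereas Tctn1 runs from 15.1 to 90.2%.

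Peaks in 1 replicate alone also ran from strong to weak. After Bbs9, the highest in replicate 1 only were Cep44 (score 100, rank 3.51%), a centriole protein next to the divergent gene Fbxo8, and Ift122. Cep76 (29), beside the divergent gene Psmg2, Cep162 (25) and Cep126 (23) were weaker. Cep162, a protein of the axoneme end, was the gene nearest outside the window, with a replicate 2 peak of score 14 at 303 bp. In replicate 2 only, Cep85l (98, rank 5.95%), a paralog of Cep85, Cep19 (91, 7.28%), which recruits the GTPase RABL2, and Cep70 (90, 7.45%) ranked highest. The Cep19 peak also lay at the promoter of the divergent gene Pigx, 60 bp away, and those of Cep63 and Cep89 at the promoters of Anapc13 and Faap24. The remaining Cep genes of this group ran from a score of 81 at Cep290 to 25 at Cep112, and included Cep83, Cep89 and Cep164 of the distal appendages with scores of 50, 28 and 57, and Cep63, Cep152 and Cep192 of centriole duplication with 46, 37 and 40. The plot of ranks places the single-replicate genes of replicate 2 from 5.95 to 72.2%. The Cep genes without a promoter peak in either replicate included Cep41, Cep78, Cep135 and Cep295nl.

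Where peaks were present, they stood higher in their lists than the promoter peaks of coding genes in general. In replicate 1 the strongest peak per gene had a median score of 47.5 (range 15 to 150) and a median rank of 21.9%, against a score of 36 and a rank of 38.8% over all genes with a peak. In replicate 2 the median score was 69.5 (15 to 146) and the median rank 14.7%, against 44 and 36.3%. A score of at least 50 was reached by 10 of 24 genes (41.7%) in replicate 1 and 26 of 38 (68.4%) in replicate 2, against 26.8 and 43.0% of all genes with a peak. The highest scores in the lists, 4910 and 6452, were far above those of the ciliary and centrosomal genes. The order of families by score differed between replicates. In replicate 1 the Ift, Bbs, Tctn and B9d peaks had a median score of 71 (n = 7) and the Cep peaks 43 (n = 17), and in replicate 2 the medians were 63 (n = 11) and 76 (n = 27). Ranked by width, the medians were 33.4 and 27.5% of the lists, against 39.9 and 36.5% over all genes with a peak, a smaller gap than by score.

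Peaks lay close to the start site and more often on its upstream side. The midpoint was a median of 142 bp from the nearest TSS in replicate 1 and 151.5 bp in replicate 2, against 135 and 136 bp over all genes. It was upstream at 16 genes and downstream at 8 in replicate 1, and upstream at 27, downstream at 10 and on the TSS at 1 in replicate 2. Over all genes with a peak the upstream and downstream counts were 1811 and 1622 in replicate 1 and 3484 and 3150 in replicate 2. By annotation of the gene itself, midpoints lay upstream of the gene at 14, in an exon at 4 and in an intron at 6 genes in replicate 1, and at 21, 12 and 5 in replicate 2. A TSS lay inside the peak at 58.3 and 68.4% of genes, close to the 61.6 and 66.8% of all genes. For genes without a promoter peak, the nearest peak lay a median of 81350.5 bp outside the window in replicate 1 (n = 38) and 26728 bp in replicate 2 (n = 24), where the list was longer. The nearest were 2091 bp away, at Ift172 in replicate 1, and 303 bp away, at Cep162 in replicate 2. Gene-body peaks outside promoters numbered 3 in 2 of the 62 genes in replicate 1 and 10 in 8 genes in replicate 2. The share over all coding genes was not computed, so these counts are not read as high or low.

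As the plot of peak positions shows, the Cep170 midpoints lay 423 and 452 bp upstream, in the direction of Sdccag8. Such bidirectional promoters were common. Of the 62 genes, 18 (29.0%) had a divergent coding gene starting within 1000 bp, against 9.13% of all coding genes. Divergent promoters had peaks at 8 genes in replicate 1 (44.4%), 12 in replicate 2 (66.7%) and 5 in both (27.8%), against 30.9, 56.4 and 26.5% of all divergent genes. The other 44 genes had peaks at 16 (36.4%), 26 (59.1%) and 13 (29.5%), against 14.2, 27.7 and 10.6% of all other genes. The peak also lay at another coding gene's promoter in 8 of 24 and 12 of 38 cases, and a peak over a shared promoter cannot be told apart between the genes. In the 30 genes whose windows met no other gene's window, replicate 1 had peaks at 11, replicate 2 at 16 and both at 9, against 12.5, 24.6 and 9.22% of all such genes.

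Promoter composition differed between the genes with and without peaks. The median GC content was 64.8% in the 18 genes with peaks in both replicates, 61.2% in the 26 with a peak in 1 and 58.0% in the 18 with none. Over all coding genes these medians were 62.7, 60.7 and 52.3%. The genes without a peak were thus GC-richer than coding genes without a peak in general, and 13 of the 18 still met the limits for GC- and CpG-rich promoters. The lowest values among genes with peaks in both replicates were Bbs2, at 39.7% GC, and Cep97, at 47.7%, whose peaks lay mostly downstream of the representative TSS.

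**Figure D3:**
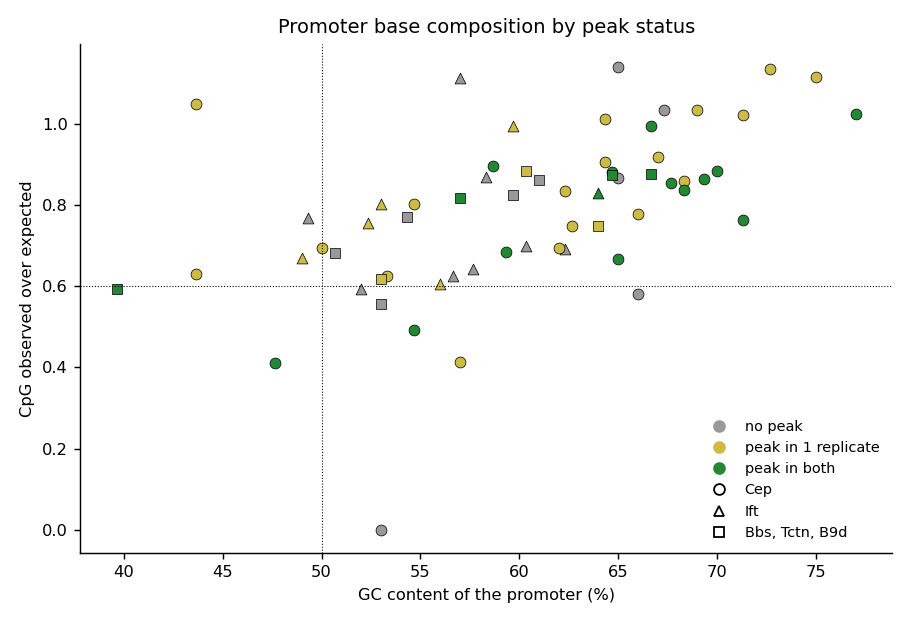
GC content (x axis, percent) and CpG observed-over-expected ratio (y axis) of the representative promoters of the 62 genes, with 1 point per gene; fill colours mark peaks in both replicates, in 1 replicate or none, shapes mark the families, and dotted lines mark 50% GC and a ratio of 0.6. Genes of all 3 classes mix in the upper right, where 50 of the 62 promoters lie, and Ift genes, all grey or yellow except Ift57, stay between 49.0 and 64.0% GC.

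The scatter of base composition shows wide overlap between the classes, with genes that had and that lacked a peak at the same GC content and CpG ratio.

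The X-box-like pair was present in 7 of the 62 promoters (11.3%), between 250 bp before and 50 bp past the representative TSS, and in 0.716% of all coding genes. The pair searched was GTTNCC followed after 0 to 3 bases by GGNAAC, on both strands. The matches are shown because the X-box is the element best known from ciliary promoters, with the pair in capitals, on the strand of the gene, in mm10.
Ift57: gccctgcgGTTGCCTGGTAACggtggggac
Tctn1: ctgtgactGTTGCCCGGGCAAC
Bbs7: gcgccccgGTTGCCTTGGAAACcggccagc
Cep19: agccttctGTTGCCTTGGGAACgatcctcg
Cep41: gtcccgcGTTGCCCTTGGCAACcattgagc
Cep295nl: gctctgctGTTCCCATGGCAACagcctccc
Tctn3: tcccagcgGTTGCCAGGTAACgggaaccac
They lie at chr16:49699226-49699255 (Ift57), chr5:122264411-122264432 (Tctn1), chr3:36613489-36613518 (Bbs7), chr16:32099803-32099832 (Cep19), chr6:30693858-30693887 (Cep41), chr11:118342549-118342578 (Cep295nl) and chr19:40612350-40612379 (Tctn3). The Ift57 pair begins at the second base of the transcript, in an exon, inside the peaks of both replicates and 22 and 26 bp from their midpoints. The Tctn1 pair, in an exon, lay inside the replicate 1 peak but outside that of replicate 2. The Cep19 pair lay inside the replicate 2 peak that it shares with Pigx, 178 bp from the midpoint, and the Bbs7 pair outside its own peak. Cep41, which is needed for tubulin glutamylation in cilia, Cep295nl and Tctn3 carried a pair and no peak in either replicate, so of the 7 genes 2 had peaks in both lists, 2 in that of replicate 2 alone and 3 in none. Over all 157 coding genes with the pair, replicate 1 had peaks at 22.9%, replicate 2 at 39.5% and both at 17.8%.

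Other motifs were searched in the same windows on both strands. The single site GTTGCC, which can be part of such a pair, occurred in 21 genes (33.9%, 11.9% of all genes), at 6 of 18 genes with peaks in both replicates, 6 of 26 with a peak in 1 and 9 of 18 with none, while over all coding genes these shares were 11.7, 12.3 and 11.8%. CCAAT, the NF-Y box, occurred in 32 genes (51.6%, 38.4% of all genes), and in 10 of 14 Ift genes. It was present at 10 of 18 genes with peaks in both replicates, 13 of 26 with a peak in 1 and 9 of 18 with none. Over all coding genes these shares were 45.0, 38.6 and 37.1%. Between 500 bp before and 100 bp past the TSS, CCAAT occurred in 61.3% of the 62 genes and 57.5% of all genes. CGCATGCG, the NRF1 motif, occurred in 3 genes (4.84%), against 2.68% of all genes and 4.57% of those with GC- and CpG-rich promoters. AAGATGGCG, a YY1 motif, occurred in 0 of 62, against 1.88 and 3.58% of these backgrounds. CTCGCGAG occurred in 3 genes (4.84%), Cep350, Ift74 and Tctn1, against 1.20 and 2.46%. Each of these 3 genes had a peak in at least 1 replicate, as had 61.0% of all 264 coding genes with this motif. These counts describe letters in a window and not binding.

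Ciliary genes with other names gave similar shares. Of 85 such genes in lists of complexes and modules, replicate 1 had peaks at 30 (35.3%), replicate 2 at 53 (62.4%) and both at 26 (30.6%), beside 15.7, 30.4 and 12.0% of all coding genes. With the named families included, the IFT-B complex had peaks in both replicates at 2 of 18 genes (11.1%), Ift57 and Hspb11, close to the 12.0% of all coding genes, and in replicate 2 at 9 (50.0%). The IFT-A complex had 2 of 6 in both (33.3%), Wdr19 (scores 94 and 99) and Ttc21b (62 and 81), neither of which carries an Ift symbol. Of the motors, Kifap3, the non-motor subunit of kinesin-II, was the only one of 10 (10.0%) with peaks in both, at 161 and 129. No difference between these lists was tested.

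Gate, satellite and membrane modules are read against the same 12.0% of all coding genes with peaks in both replicates. In the transition zone, 6 of 18 (33.3%) had peaks in both replicates, among them Tctn1, Tmem231 (31 and 116), Tmem17 (81 and 99), Rpgrip1l (68 and 128) and Ahi1 (24 and 52). All 3 chaperonin-like genes and 2 of 10 BBSome genes, Bbs2 and Bbip1 (75 and 94), had them. Centriole duplication genes had 6 of 16 (37.5%), including Ccp110 (32 and 23), the partner of Cep97, and Cetn3 (58 and 130). Satellite genes had 6 of 12 (50.0%), Cep131, Ofd1 (28 and 34), Cdk5rap2 (35 and 62), Ninl (34 and 84), Odf2 (36 and 38) and Sdccag8, which has the Cep170 peak. Distal appendage genes had 1 of 6 (16.7%), Ttbk2 (58 and 56), the kinase that starts ciliogenesis, and 4 more in replicate 2 only. Among small GTPase genes 4 of 11 (36.4%) had them, Arl13b (91 and 80), Inpp5e (13 and 35), Rab8a (60 and 163) and Pde6d (33 and 77).

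**Figure D4:**
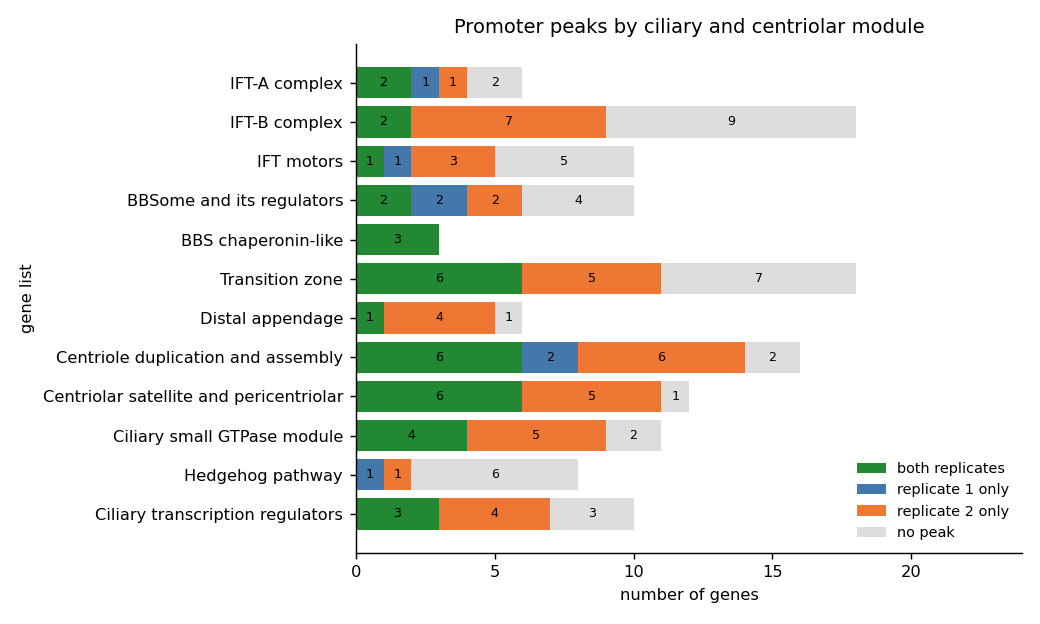
Number of genes (x axis) of each ciliary or centriolar list (y axis) by where a promoter peak was found, with green for both replicates, blue for replicate 1 alone, orange for replicate 2 alone and grey for none. The IFT-B complex has 2 of 18 genes with peaks in both replicates and 9 with none, the satellites have 6 of 12 and 1, and the Hedgehog pathway has none of 8 with peaks in both.

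The stacked bars of modules set these lists side by side. Hedgehog pathway genes, whose signalling in vertebrates runs through the cilium, had 1 of 8 (12.5%, exact interval 0.316 to 52.7%) in each replicate, an interval that includes the 15.7 and 30.4% of all coding genes, Gli3 in replicate 1 (score 31) and Sufu in replicate 2 (40), and 0 in both. Of the regulators of ciliary genes, the X-box factors Rfx1 (65 and 116), Rfx2 (40 and 35) and Rfx3 (34 and 68) had peaks in both replicates, 3 of 10 (30.0%). Foxj1 and Gmnc, regulators of multiciliated cells, had peaks of score 24 each in replicate 2 only, and Mcidas and Ccno had none. Of 8 embryonic stem cell markers, Zfp42 had a promoter peak in replicate 1 and Pou5f1, Sox2, Zfp42 and Tfcp2l1 in replicate 2, so promoter peaks cover part of the marker list and were not used to judge the cell type.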

How the data were processed

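The authors deposited 1 list of peaks per CUT&Tag library (chromosome, start, end, name and score), called with MACS2 on mm10, and per the labels the tools also included STAR and Picard, with dm6 for the Drosophila spike-in. The deposited score is a whole number of at least 13, read here as the −log10 q-value multiplied by 10 and truncated, with a q threshold of 0.05. It depends on depth, which the lists do not give, so it was used for ranks within a list and not compared between libraries. The methods describe removal of duplicates and of reads outside autosomes and sex chromosomes, scaling down to equal Drosophila read numbers and a blacklist filter, and the reporting form gives a peak-calling command with an input control in its ChIP-seq part. Each list holds 6 mitochondrial peaks, which that chromosome filter would remove, so which of these steps and whether a control applied to these lists is unknown. The mitochondrial peaks stayed in the list lengths and ranks used here, and only mitochondrial genes were left out.

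Peaks were overlapped with promoters of GENCODE release 21 and the GRCm38 sequence, the same assembly. A representative TSS was that of the transcript with the best APPRIS level, then the longest. The genes named were all Ift, Bbs, Tctn and B9d genes, genes with peaks in both replicates, the 3 highest of each single-replicate class, those nearest the window edge, and related genes with peaks in both replicates. A few further genes were chosen after their values were seen. Some genes that these rules name are not reported here. Genes, lists and motifs were chosen with earlier results of these data known. With 1 group no test was run. Intervals are exact (Clopper-Pearson) 95% binomial intervals and cover counting error only. Overlap code was tested on simulated data. Software was Python 3.11.15 with pandas 2.3.3, numpy 2.4.6, matplotlib 3.10.9 and scipy 1.17.1.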

Additional observations from a re-analysis of the deposited data

How the results depend on the processing

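Of 89 alternative values of 29 results, 68 stayed within the limits set (1.5 times for counts) and 21 moved. Requiring a TSS inside the peak left 14 of 62 genes in replicate 1 and 7 of 62 in both (9.73 and 6.97% of all genes). No interval was computed for this setting, so whether the excess over all genes exceeds counting error there was not tested. A score of at least 50 left 10 and 7 (4.21 and 2.99%). Genes with windows of their own, 30 of the 62, gave 11 in replicate 1, 16 in replicate 2 and 9 in both, fewer because fewer genes enter. The mean over the replicates of 31.0 genes ranged from 24 to 38 with 1 replicate left out, and 24 is the count of replicate 1 alone. With lists of equal length replicate 2 had 32 genes and both replicates 16 (19.2 and 9.69% of all genes), without Tctn1 and Cep131 in both. The limits on GC- and CpG-rich promoters and the family counts with 1 TSS per gene were added after the data had been seen. No paired analysis was possible because both samples belong to 1 group. With 2 lists of unequal length and unknown depth, a promoter without a peak may lie below the detection limit of its library, and how many do was not tested.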
